A study of Mus with 15 samples.

Results

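Mature regulatory T cells (Tregs) of the mouse thymus were compared with FOXP3lo Treg progenitors, by bulk RNA sequencing of sorted cells. The comparison was set by the sort gates given in the labels and takes 6 of the 15 libraries of the study, 3 from each gate, numbered 40, 42 and 43. Both gates took live thymocytes positive for the T cell receptor beta chain and for CD4, and negative for CD8, BST2 and CD73. FOXP3lo progenitors had low FOXP3 and no CD25 on their surface, and mature Tregs had both FOXP3 and CD25. So the gates differed in CD25, the alpha chain of the interleukin 2 (IL-2) receptor, and in the amount of FOXP3, the transcription factor that defines Tregs. The other gates used below are conventional CD4 single-positive (CD4SP) cells, with neither protein, and CD25+ progenitors, with CD25 and no FOXP3, both also BST2- and CD73-negative. A Bst2+ gate of cells with CD25, FOXP3 or both was left out of the fit. All mice were females aged 6 weeks, of the strain C57Bl/6 x Foxp3-GFP, so controls and Tregs alike carried the reporter. The labels do not say whether the FOXP3 gate read the reporter or the protein, or whether a replicate is 1 mouse or a pool, so p-values measure the spread between these samples.

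Thymic Tregs arise from CD4SP cells that recognise self-peptides, and both CD25+ cells without FOXP3 and FOXP3lo cells without CD25 have been described as precursors of the mature Treg. In mature Tregs the IL-2 receptor of alpha, beta and common gamma chains passes its signal through the kinases JAK1 and JAK3 to the transcription factor STAT5, which binds to and induces genes such as Cish and Socs2, whose products damp the same pathway. CD25 raises the affinity of this receptor for IL-2. GARP, the product of Lrrc32, holds latent transforming growth factor beta (TGF-beta) on the surface of activated Tregs, from where integrin alpha-v beta-8 can release it.

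The 6 libraries held 12597114, 15020200 and 15749349 counts in mature Tregs and 18180510, 18497274 and 18650969 in FOXP3lo progenitors. Replicates of a gate correlated across genes at 0.953 to 0.957 (log2 CPM, mature Tregs) and 0.972 to 0.974 (FOXP3lo progenitors), genes not being independent replicates. The biological coefficient of variation was 0.164 among mature Tregs and 0.124 among FOXP3lo progenitors, against 0.449 among the Bst2+ libraries. Levels below are CPM, which are counts divided by TMM-scaled library size, given for replicates 40, 42 and 43 in that order or as mean ± SD (n = 3). Differences are log2 fold changes of mature Tregs against FOXP3lo progenitors ± standard error, with p-values by the quasi-likelihood method of edgeR, adjusted by Benjamini and Hochberg's procedure over all genes tested. A gene was called, and is said to have risen or fallen, at an adjusted p under 0.05. Positions are on GRCm38.

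The genes of the gate followed the sort. Foxp3 (ENSMUSG00000039521, chromosome X, 7573644 to 7595245) stood at 535, 616 and 651 CPM in mature Tregs and at 298, 273 and 302 in FOXP3lo progenitors, and all 3 mature libraries lay above all 3 FOXP3lo libraries. Its mean was 0.956 ± 0.548 CPM in conventional cells and 3.22 ± 1.24 in CD25+ progenitors. The difference between the FOXP3 gates was 1.05 ± 0.14 (adjusted p = 9.55e-05, edgeR), a 2.06-fold higher level. It was not called with the Bst2+ libraries in the fit (1.04, adjusted p = 0.0751). Il2ra (ENSMUSG00000026770, chromosome 2, 11642807 to 11693193), which encodes CD25, stood at 1162, 1183 and 1125 CPM against 105, 101 and 118, a difference of 3.43 ± 0.08 (adjusted p = 4.13e-31). The FOXP3lo libraries, sorted without surface CD25, thus held 108 ± 9.095 CPM of Il2ra RNA, against 290.2 ± 6.98 in CD25+ progenitors and 9.11 ± 1.47 in conventional cells. Cd4 fell by 0.35 on the log2 scale (adjusted p = 3.87e-05), from 679 ± 41.3 to 533 ± 9.45 CPM, a call lost with the Bst2+ libraries in the fit (adjusted p = 0.107). Nt5e, which encodes the excluded surface protein CD73, stood at 12.9, 9.31 and 12.2 CPM in mature Tregs and 5.38, 4.83 and 10.1 in FOXP3lo progenitors, ranges that overlap (0.76 ± 0.34, adjusted p = 0.128). It was called with only the compared gates in the fit (adjusted p = 0.0452), with limma-voom (adjusted p = 0.0256) and without FOXP3lo replicate 43, where edgeR gave 1.17 (adjusted p = 0.0428). Of the markers of the Treg lineage, Ctla4 and Ikzf2 rose with Foxp3 and Il2ra (1.15 and 0.95). Of those of CD4 T cells, Cd3e, Trbc1 and Trbc2 were each present at over 100 CPM in both gates, and fell by 0.28, 0.58 and 0.51.

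**Figure D1:**
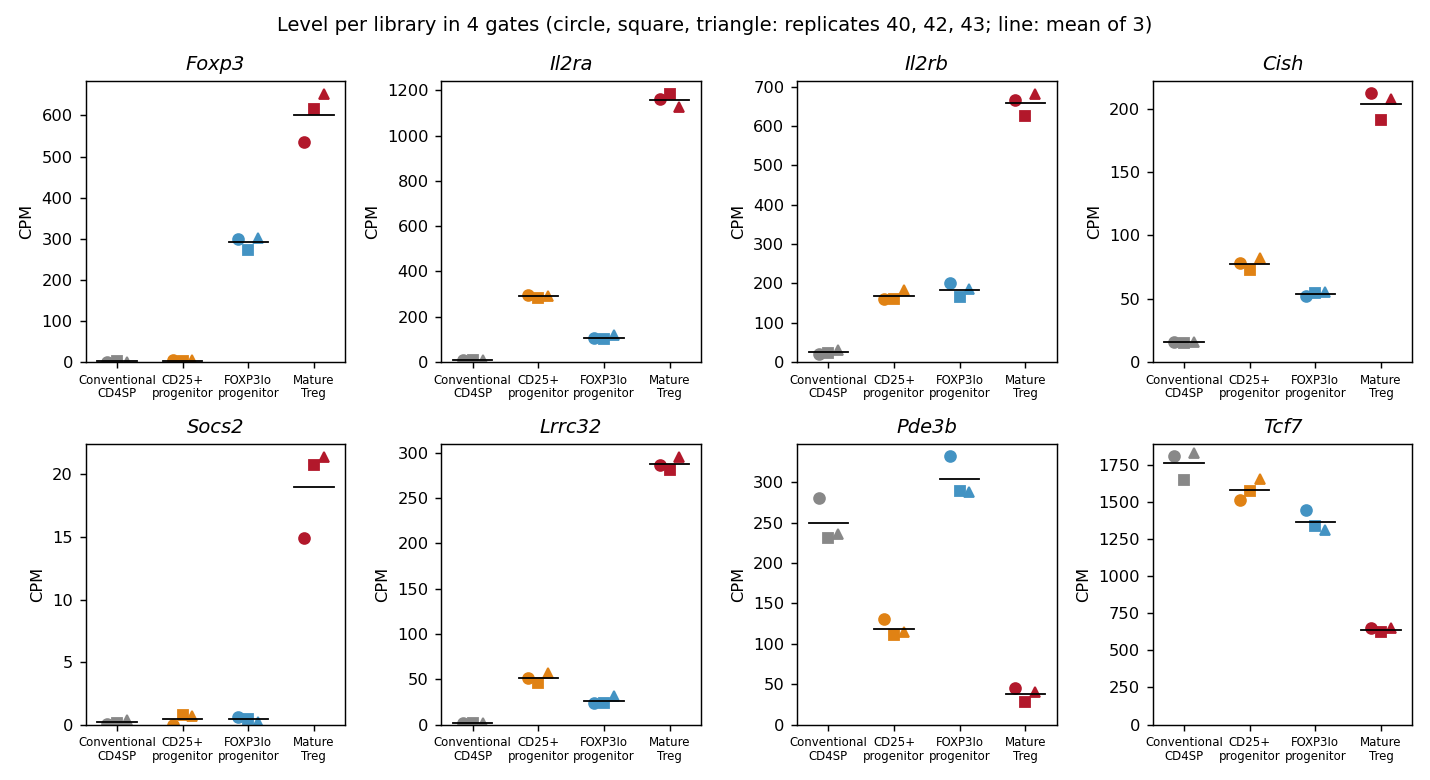
CPM (y axis, linear from 0) of 8 genes in each library of 4 gates (x axis), with the mean of 3 libraries as a line. Il2ra, Il2rb, Cish, Lrrc32 and Socs2 stand highest in the 3 mature Treg libraries, Foxp3 is at 273 to 302 CPM in the FOXP3lo libraries and 535 to 651 in the mature ones, and Pde3b and Tcf7 are lowest in mature Tregs.

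Of 15648 genes tested, 2919 were called (18.7%), 1466 higher (9.37%) and 1453 lower (9.29%) in mature Tregs. The difference was over 2-fold for 376 of the higher and 302 of the lower genes, and the median over all genes tested was 0.0025 on the log2 scale. In 5014 genes (32.0%) the 3 mature and the 3 FOXP3lo libraries did not overlap, and 2779 of these were also called. Among the genes called higher, mature Tregs had the highest mean of the 4 gates in 680 and CD25+ progenitors in 731. Among those called lower, mature Tregs had the lowest mean in 765 and CD25+ progenitors in 622. As RNA was measured in bulk, fewer cells that express a gene and less of its RNA per cell cannot be told apart, here and for every gene below. With the Bst2+ libraries in the fit 759 genes were called, and without them 412 passed when the null was a change of up to 1.5-fold.

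**Figure D2:**
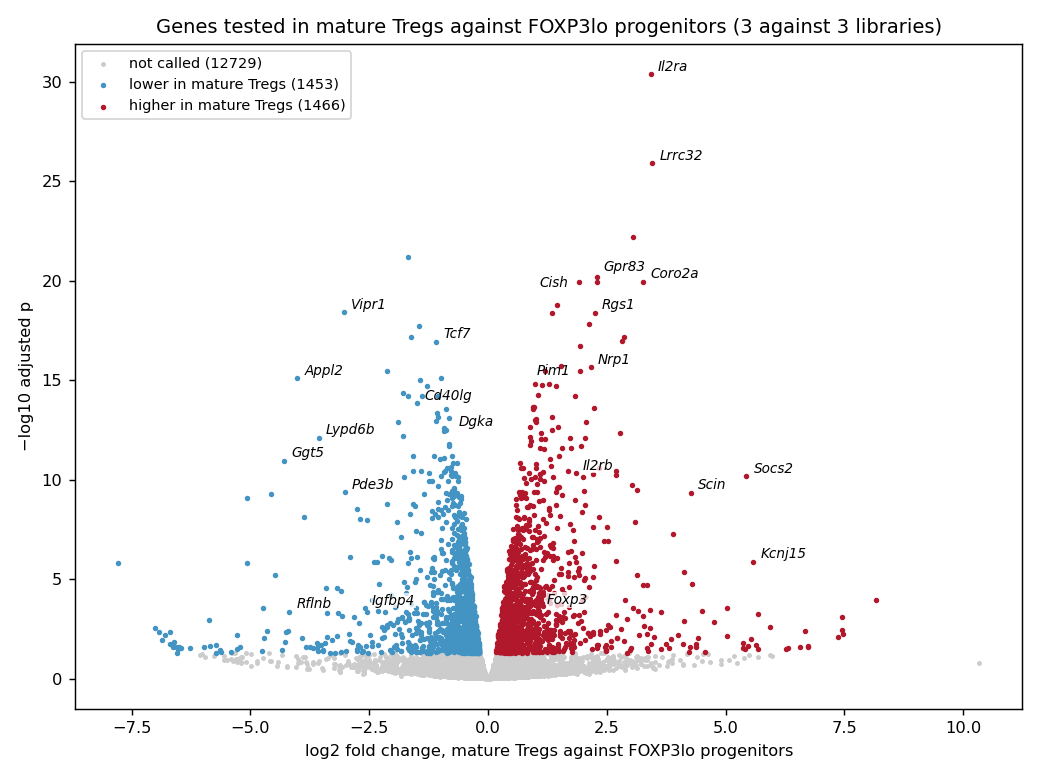
Each of 15648 genes by its log2 fold change, mature Tregs against FOXP3lo progenitors (x axis), and the −log10 of its adjusted p (y axis), coloured by call. Il2ra and Lrrc32 have the smallest adjusted p of all, and 1466 genes lie on the higher side and 1453 on the lower.

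Within the IL-2 receptor and its signalling pathway the alpha and beta chains rose, and several kinases and receptors of other cytokines fell. Il2rb, the beta chain (ENSMUSG00000068227, chromosome 15, 78479256 to 78495271), stood at 665, 626 and 681 CPM in mature Tregs and 199.5, 165 and 186 in FOXP3lo progenitors. All mature libraries were above all FOXP3lo libraries, and the difference was 1.84 ± 0.11 (adjusted p = 4.81e-11). The common gamma chain gene Il2rg stood at 176 ± 14.8 against 168 ± 2.896 CPM and was not called (0.06, adjusted p = 0.653). Per kilobase of exon, the mean levels in mature Tregs were 203 CPM per kilobase for Il2ra, 153 for Il2rb and 73.6 for Il2rg. In FOXP3lo progenitors they were 18.9, 42.8 and 70.5, so that on this scale the alpha chain had the lowest mean of the 3 there and the highest in mature Tregs. The gates were sorted on the alpha chain itself, so the direction of its change follows from the sort.

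Receptors of other cytokines went in both directions or were not called. Il7r, the IL-7 receptor alpha chain, was at 46.8 ± 11.8 CPM in mature Tregs and 45.8 ± 6.05 in FOXP3lo progenitors (0.03, adjusted p = 0.968), against 345 ± 18.5 in conventional cells. Il15ra and Il21r were not called (−0.20 and 0.10), and Il4ra rose by 0.26. Il6st, the gp130 chain shared by the IL-6 family, fell by 0.88 (adjusted p = 2.67e-14), from 838, 871 and 858 CPM to 465, 463 and 466, with no overlap between the gates, and Il6ra fell by 0.39. Of the transducers, Stat5a rose by 0.89 (adjusted p = 7.36e-13), from 163 ± 11 to 301 ± 7.78 CPM, and was not called with the Bst2+ libraries in the fit (adjusted p = 0.0809). Its paralogue Stat5b was not called (0.15), and Stat3 rose by 0.23. Jak1 and Jak3 fell by 0.36 and 0.41. In all, 5 of the 15 pathway members rose, the gate's own Il2ra among them, 5 fell and 5 were not called, with a median log2 fold change of 0.06.

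Genes that STAT5 induces, cytokine feedback inhibitors among them, were for the most part higher in mature Tregs: of 20 tested, 16 rose, 2 fell and 2 were not called, with a median of 0.85. Cish (ENSMUSG00000032578, chromosome 9, 107296026 to 107302784), which encodes the feedback inhibitor CIS, stood at 212, 191 and 207 CPM against 51.8, 54.5 and 55.1 in FOXP3lo progenitors (1.92 ± 0.09, adjusted p = 1.10e-20). It averaged 77.6 ± 4.87 CPM in CD25+ progenitors and 15.7 ± 0.408 in conventional cells, so that the lowest mature library lay above every library of the other 3 gates. Socs2 (ENSMUSG00000020027, chromosome 10, 95385362 to 95417180), a further inhibitor of the family, was at 14.9, 20.8 and 21.4 CPM in mature Tregs and at 0.636, 0.449 and 0.2201 in FOXP3lo progenitors. The FOXP3lo libraries together held 23 counts of it and the mature libraries 806, a difference of 5.43 ± 0.50 (adjusted p = 6.73e-11). Socs1 and Socs3 rose by 1.29 and 0.63.

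Other members of this list act in survival and growth. Pim1, a serine/threonine kinase that supports survival, stood at 122, 149 and 126 CPM against 33.5, 37.7 and 32.7 (1.93 ± 0.12, adjusted p = 3.51e-16). Its relative Pim2 went the other way, by −1.14, at a mean of 8.58 CPM against 18.9. Bcl2l1, which encodes the survival protein BCL-xL, stood at 105, 96.9 and 107 CPM against 39.8, 33 and 34.1 (1.53 ± 0.09, adjusted p = 1.92e-16). The cytokine genes Lif and Osm rose by 3.88 and 0.75, Lif from 0.289, 0.674 and 0.825 CPM to 8.12, 6.81 and 11.8. Myc rose from 54.95 ± 1.67 to 108 ± 14.4 CPM (0.97). Of the D cyclins, Ccnd2 rose from 638 ± 10.3 to 1256 ± 43.7 CPM (0.98), while Ccnd3 fell by 0.35.

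In the GARP and TGF-beta pathway Lrrc32, Itgb8, Tgfb1, Ltbp1 and Tgfbr1 were among the genes that rose, while other receptors of TGF-beta fell. Lrrc32 (ENSMUSG00000090958, chromosome 7, 98489283 to 98502181) stood at 287, 281 and 295 CPM in mature Tregs and at 23.6, 23.7 and 31.1 in FOXP3lo progenitors (3.46 ± 0.10, adjusted p = 1.23e-26), a 11.01-fold difference. The lowest mature library was above every library of CD25+ progenitors (51.2, 45.4 and 57.4 CPM) and of conventional cells (1.503, 1.796 and 1.51). Itgb8, the beta-8 integrin chain that pairs with alpha-v, rose from 13.1, 14.7 and 16.5 CPM to 32.4, 17.8 and 40.6 (1.04 ± 0.22, adjusted p = 5.42e-04), while its partner Itgav was not called (−0.03). Tgfb1 rose by 0.36, from 187 ± 15.1 to 240.3 ± 10.02 CPM, and Ltbp1, a latent TGF-beta binding protein gene, by 1.49 at a mean of 5.07 CPM. Tgfbr1, the signalling type I receptor, rose from 163, 171 and 192 CPM to 393, 386 and 426 (1.20 ± 0.07, adjusted p = 3.51e-16).

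The remaining TGF-beta receptors fell. Tgfbr2, the ligand-binding type II receptor, fell by 0.76, from 403, 392 and 401 CPM to 236, 251 and 221, and Tgfbr3, the co-receptor betaglycan, by 1.29, from 119.5 ± 13.3 to 48.9 ± 1.79 CPM. For both, no mature library reached a FOXP3lo library. Smad3, which carries the signal to the nucleus, fell by 0.52, and Smad2, Smad4 and Smad7 were not called (−0.12, −0.11 and −0.06). Of 18 members of this pathway, 8 rose, 3 fell and 7 were not called (median 0.21). The number higher was 5 without FOXP3lo replicate 42 and 3 with the Bst2+ libraries in the fit.

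Transcription factors of the Treg lineage went both ways, and of 28 tested 7 rose, the gate's own Foxp3 among them, and 10 fell (median −0.03). Irf4, which acts in activated Tregs, rose from 22.2, 19.1 and 21.7 CPM to 57.3, 51.8 and 66.1 (1.48 ± 0.11, adjusted p = 2.19e-13), and Gata3 from 129.8, 139 and 134 to 280, 282 and 274 (1.05 ± 0.07, adjusted p = 5.47e-15). Ikzf2, which encodes Helios, rose from 599 ± 53.2 to 1156 ± 106 CPM. It was at 1164 ± 48.7 CPM in CD25+ progenitors. Rora and Xbp1 rose by 0.94 and 0.96, and Ikzf4, which encodes Eos, by 0.28. Bach2, Runx1, Cbfb and Batf were not called (0.01, −0.03, −0.13 and 0.03).

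Tcf7, which encodes TCF-1, a factor of early and resting T cells, stood at 1441, 1338 and 1307 CPM in FOXP3lo progenitors and at 647, 623 and 649 in mature Tregs (−1.09 ± 0.06, adjusted p = 1.21e-17). It averaged 1761 ± 103 CPM in conventional cells and 1580 ± 71.5 in CD25+ progenitors, so the mature libraries were the lowest of the 4 gates. Its relative Lef1 fell by 0.66, the chromatin organiser Satb1 by 0.64, from 1906 ± 41.2 to 1222 ± 64.3 CPM, and Bcl6 by 1.25. Id2 fell by 1.19 at a mean of 5.49 against 12.5 CPM. Foxo1, Ets1, Ikzf1, Ikzf3 and Nfatc1 fell by 0.19 to 0.37.

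Of 26 receptors and effector molecules of the Treg signature tested, 18 rose, 1 fell and 7 were not called, with a median of 1.19. Nrp1, the co-receptor neuropilin-1 found on thymic Tregs, stood at 113, 116 and 123 CPM in mature Tregs against 28.4, 23.97 and 26.2 (2.16 ± 0.13, adjusted p = 2.28e-16). Gpr83, a G protein-coupled receptor of Tregs, stood at 212, 202 and 189.6 CPM against 38.3, 43.4 and 42.2 (2.28 ± 0.10, adjusted p = 6.34e-21). For both genes the gates did not overlap. Ctla4, the inhibitory receptor that competes with CD28 for its ligands, rose from 90.2, 84.9 and 96.4 CPM to 215, 179.5 and 209.5 (1.15 ± 0.11, adjusted p = 4.15e-11).

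Of the other signature genes, Entpd1 and Itgae were low in FOXP3lo progenitors. Entpd1, which encodes the ecto-enzyme CD39, was at 0.347, 0.168 and 0.8803 CPM there and at 5.02, 5.42 and 7.28 in mature Tregs (3.64 ± 0.77, adjusted p = 4.38e-04). Itgae, the alpha chain of the integrin CD103, rose from 2.603, 1.74 and 4.46 CPM to 15.6, 15.01 and 19.96 (2.52), a call lost with the Bst2+ libraries in the fit (adjusted p = 0.161). Capg and Cd83 rose by 2.04 and 1.96, and Izumo1r, the folate receptor 4 gene, by 1.17. The 1 member that fell was Pde3b, described with the cyclic AMP genes below. Icos was not called (−0.26, 51.8 ± 3.12 against 61.9 ± 6.23 CPM), nor was Tnfrsf1b, which encodes TNFR2 (0.20, 196 ± 10.8 against 171 ± 19.6 CPM).

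Costimulatory receptors of the TNF receptor superfamily rose in 6 of 12 cases and fell in 3 (median 0.27). Tnfrsf4, which encodes OX40, stood at 364, 356 and 398 CPM against 102, 90.5 and 119 in FOXP3lo progenitors (1.84 ± 0.14, adjusted p = 7.83e-07). Tnfrsf18, which encodes GITR, stood at 327, 269 and 298 CPM against 145, 109 and 133 (1.21 ± 0.09, adjusted p = 8.59e-13). The highest FOXP3lo library was below the lowest mature library in both. Tnfrsf9, which encodes CD137, rose by 0.77, Tnfrsf25 by 0.57 and Fas, the death receptor, by 0.34. Cd27 was not called (−0.18), and Tnfrsf26, Tnfrsf14 and Tnfrsf1a fell by 1.03, 0.82 and 0.64, the last not with the Bst2+ libraries in the fit (adjusted p = 0.308). Of 11 ligands 4 rose, Lta by 1.01, Tnfsf8, the CD30 ligand, by 0.86, Tnf by 0.66 and Ltb by 0.29. Lta was not called with the Bst2+ libraries in the fit (adjusted p = 0.313), nor were Ltb and Tnfsf11. The call of Ltb was lost without FOXP3lo replicate 42 (0.25, adjusted p = 0.0565) or mature replicate 42 (0.22, adjusted p = 0.0874). Without FOXP3lo replicate 42, 2 ligands were called higher. Cd40lg, the ligand that T cells use to activate CD40-bearing cells, fell from 40.96, 41.99 and 39.7 CPM to 14.6, 14.9 and 13.98 (−1.50 ± 0.10, adjusted p = 1.42e-14), and Tnfsf11, which encodes RANKL, fell by 0.83.

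In the CD28 family and among other inhibitory receptors Ctla4 was the 1 of 15 that rose, and 6 fell (median −0.16). Cd28 itself fell from 384, 404 and 419.8 CPM to 262, 266 and 261 (−0.61 ± 0.06, adjusted p = 7.58e-10). Cd5 and Cd6, paired receptors that tune T cell receptor signals, fell by 0.46 and 0.39. Lair1 fell by 1.63 at under 1 CPM, and Btla and Vsir by 0.27 and 0.25. The call of Vsir was lost without replicate 42 or 43 of either gate (adjusted p = 0.0536 to 0.118). The list had 3 lower members without mature replicate 42 or FOXP3lo replicate 43. Pdcd1 and Lag3 were not called (−0.04 and −0.12).

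Genes that T cell receptor (TCR) signals induce were split, with 5 of 23 higher and 8 lower (median −0.12). The early growth response factors Egr1, Egr2 and Egr3 fell by 0.47, 0.62 and 1.00, Egr2 from 51.1 ± 6.66 to 33.2 ± 5.29 CPM and Egr3 from 49 ± 1.74 to 24.5 ± 2.804, the last not called with the Bst2+ libraries in the fit (adjusted p = 0.199). Their partner Nab2 fell by 0.27. Of the nuclear receptors that report TCR signals, Nr4a1, which encodes Nur77, was at 208 ± 25.1 CPM in mature Tregs and 213 ± 14.8 in FOXP3lo progenitors (−0.03, adjusted p = 0.867), and Nr4a3 rose by 0.40. Cd69 did not pass the test either (0.00, 109 ± 11.9 against 109 ± 4 CPM). Rgs1, a regulator of G protein signals from chemokine receptors, had the highest fold change of the list, with 176, 182 and 185 CPM in mature Tregs against 37.95, 33.9 and 42.3 (2.25 ± 0.11, adjusted p = 3.98e-19).

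Regulators of TCR signals, most of which restrain them (restraining regulators below), fell more often than they rose, with 8 lower and 3 higher of 26 (median −0.15). Dgka, a kinase that removes diacylglycerol, fell from 1359, 1353 and 1423 CPM to 734, 769.7 and 843 (−0.82 ± 0.06, adjusted p = 8.31e-14). Rasal3, a GTPase-activating protein for RAS, fell by 0.99, the phosphatase gene Ptpn22 by 0.93, Dusp6 by 0.78 and Dgkz by 0.47. The 3 that rose act in the MAP kinase pathway: Dusp4 rose from 101 ± 15.2 to 263 ± 15.97 CPM (1.37), Dusp5 by 1.12 and Spry1 by 0.86. Cblb, Ptpn6 and Csk were not called (−0.15, −0.06 and −0.04).

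Among NF-kB genes 9 of 30 rose and 4 fell (median 0.09). Rel, which encodes the c-Rel subunit needed for Treg formation, rose from 234, 211 and 234 CPM to 429, 426 and 458 (0.95 ± 0.07, adjusted p = 2.86e-14). Nfkb1 and Nfkb2 rose by 0.37 and 0.59, while Rela and Relb were not called (0.02 and 0.21). The inhibitor gene Nfkbia, itself an NF-kB target, rose by 0.63, and Birc3 by 0.42. Malt1, the protease of the complex that links the TCR to NF-kB, fell from 169.5, 182 and 175 CPM to 87.8, 110.3 and 96.96 (−0.83 ± 0.08, adjusted p = 1.20e-10), and its partner Bcl10 was not called (0.25). The kinase genes Map3k14, Ikbkb and Chuk fell by 0.47, 0.31 and 0.28.

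Interferon-stimulated genes were lower in mature Tregs than in FOXP3lo progenitors: 27 of 64 fell, 2 rose and 35 were not called, with a median of −0.23. Over all matched members the summed level was 7808 to 8275 CPM in mature Tregs and 9091 to 9734 in FOXP3lo progenitors. It was lower in conventional cells (6150 to 6933) and in CD25+ progenitors (4125 to 4484). Of the 27, Ly6a, Oas2 and Ifi213 fell by over 2-fold. Oas2, an antiviral oligoadenylate synthetase gene, fell from 28.2, 25.3 and 22.2 CPM to 8.37, 12.02 and 14.6 (−1.10 ± 0.22, adjusted p = 7.79e-04). Ifi213, of the IFI200 family of DNA sensors, fell from 246, 258 and 242 CPM to 111, 120.3 and 121 (−1.08 ± 0.16, adjusted p = 3.91e-04). The gates did not overlap in either. Slfn5 and Gbp4 each fell by 0.72, Rsad2 and Ifi44 by 0.89 and 0.90, and Ly6a, at 3.03 CPM or less on average, by 1.99. The factors Irf7 and Irf1 fell by 0.53 and 0.28. The 2 that rose were Gbp3 (0.71) and Ly6e (0.28), and Isg15 and Mx1 were not called (0.11 and −0.28). Genes of the IFI200 and GBP families resemble each other in sequence, so that reads may be shared between neighbours.

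Genes that mark late single-positive thymocytes and their exit from the thymus fell in 14 of 27 cases and rose in 3 (median −0.29). Their summed level was 6601 to 6659 CPM in mature Tregs and 7564 to 7708 in FOXP3lo progenitors. It was lower in conventional cells (5059 to 5418) and in CD25+ progenitors (2445 to 2660). The GIMAP genes, GTPases of mature T cells encoded in 1 cluster, fell together for Gimap3, Gimap4, Gimap5, Gimap6 and Gimap8, by 0.31 to 0.60. Gimap6 stood at 676, 708 and 696 CPM in FOXP3lo progenitors and 418, 497 and 459 in mature Tregs (adjusted p = 1.47e-09). Gimap1, Gimap7 and Gimap9 were not called. S1pr1, the receptor through which T cells leave the thymus, fell by 0.29, from 618 ± 4.204 to 507 ± 9.26 CPM, and Rasgrp2, an activator of the GTPase RAP1, fell from 299, 282 and 276 to 141, 158 and 148 (−0.93 ± 0.07, adjusted p = 2.62e-13). Klf2, the factor that drives S1pr1, rose from 226, 206 and 228 CPM to 279, 297 and 291 (0.39 ± 0.07, adjusted p = 2.89e-05). Ccr7 was not called (0.13).

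Genes of immature thymocytes went both ways, with 6 of 27 higher and 8 lower (median 0.20). Sox4, a factor of immature thymocytes, fell from 269, 269.5 and 253 CPM to 118, 121 and 137 (−1.07 ± 0.08, adjusted p = 4.68e-14), and Cd1d1, Themis and Itm2a fell by 0.41, 0.28 and 0.29. Myb rose by 0.39 and Cd24a by 0.52. Rag1 and Rag2, the recombinase genes, stood at 2.61 and 0.159 CPM in mature Tregs and were not called. None of the 6 rises was called with the Bst2+ libraries in the fit.

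Chemokine receptors and adhesion molecules rose in 10 of 25 cases and fell in 4 (median 0.21), against 4 and 1 with the Bst2+ libraries in the fit. Ccr6, a receptor of activated and recirculating Tregs, rose from 4.397, 4.55 and 8.31 CPM to 37.99, 28.8 and 45.6 (2.70 ± 0.25, adjusted p = 5.86e-11), a call lost with the Bst2+ libraries in the fit (adjusted p = 0.0565). Cd44 rose from 56.99, 53.9 and 57 CPM to 138, 137 and 131 (1.27 ± 0.08, adjusted p = 1.56e-15), and Icam1, the ligand of the integrin LFA-1, from 19.7 ± 1.58 to 44.3 ± 6.99 CPM (1.17). Ccr8 rose by 0.79. Itga4 fell from 638, 671 and 647 CPM to 309, 352 and 371 (−0.92 ± 0.07, adjusted p = 3.57e-13), and Itgal and Itgb2, the chains of LFA-1, fell by 0.30 and 0.23. Ccr4, Ccr9 and Cxcr4 were not called (0.21, −0.69 and −0.18).

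Survival and death genes of the BCL-2 family and the caspases rose in 11 of 27 cases and fell in 2 (median 0.32). Besides Bcl2l1, the survival genes Bcl2 and Mcl1 rose, Bcl2 from 263, 256 and 255 CPM to 407, 389 and 386 (0.61 ± 0.07, adjusted p = 3.41e-09) and Mcl1 by 0.29. Bcl2l11, which encodes the death-inducing protein BIM, fell from 96.2, 128 and 109.9 CPM to 54.1, 61.2 and 46.8 (−1.05 ± 0.11, adjusted p = 7.39e-09), with no overlap. Other death-promoting genes rose, among them Bbc3, which encodes PUMA, by 0.95, Bid by 0.99 and Bak1 by 0.37. The number of members called higher was 6 without FOXP3lo replicate 40 or mature replicate 42, and 4 with the Bst2+ libraries in the fit. The number lower was 1 without any 1 of the compared libraries other than FOXP3lo replicate 40. The Bcl2a1 copies are near-identical, and reads among them are uncertain.

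Of 47 proliferation genes 8 rose and 2 fell (median 0.12). The share called was near the 18.7% of all genes tested, of which 9.37% rose and 9.29% fell. The 8 act in DNA replication or in the upkeep of DNA methylation. They were Mcm2, Mcm3, Mcm5 and Mcm6, subunits of the replication helicase, at 0.61 to 0.94, its cofactors Cdc45 and Gins2, Pcna, the sliding clamp (0.28), and Uhrf1, which maintains DNA methylation. Mcm5 stood at 26.6, 32.1 and 27.3 CPM in FOXP3lo progenitors and 57.2, 58.02 and 50.6 in mature Tregs (0.94 ± 0.10, adjusted p = 2.22e-09), and Uhrf1 at 8.91, 7.69 and 10.2 and 24.9, 23.7 and 24.1 (1.44 ± 0.16, adjusted p = 1.85e-09). Mcm4 and Mcm7, of the same helicase, were not called (0.21 and 0.13). The genes of dividing cells Mki67 and Top2a were not called (0.12 and −0.07), with Mki67 at 68.3 ± 17.01 against 62.8 ± 2.46 CPM. Kif23 and Cenpa, genes of mitosis, fell by 0.69 and 0.48. The number lower was 4 without mature replicate 40 or 42, 1 without mature replicate 43 and 0 with the Bst2+ libraries in the fit. All 4 gates held these transcripts, and Mki67 averaged 201 ± 18.3 CPM in conventional cells.

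The MYC network and ribosome biogenesis rose in 23 of 36 cases and fell in 1 (median 0.50). Besides Myc, the MYC targets Odc1 and Srm, enzymes of polyamine synthesis, rose by 1.06 and 1.03. The nucleolar genes Npm1, Ncl and Fbl rose by 0.67, 0.59 and 0.73, Npm1 from 434, 444 and 433 CPM to 708, 729 and 657 (adjusted p = 1.44e-11) with no overlap between the gates. Nop16, Nop58, Rrp12 and Polr1b rose by 0.70 to 1.03. The 1 that fell was Mlxip, a glucose-sensing relative of the network (−0.37), and Max and Mnt were not called (0.10 and −0.14).

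Of 24 genes of glucose use 10 rose and 2 fell (median 0.20), against 3 and 1 with the Bst2+ libraries in the fit. The number lower was also 1 without replicate 42 of either gate, mature replicate 40 or FOXP3lo replicate 43. Hk2, the inducible hexokinase, rose from 2.37, 2.41 and 3.19 CPM to 13.6, 10.6 and 12.9 (2.21 ± 0.27, adjusted p = 2.46e-08). Ldha, lactate dehydrogenase A, rose by 0.45, Pgk1 by 0.45, and Slc2a3, a glucose transporter gene, by 0.49, while Slc2a1 was not called (0.15). Eno3 and Tpi1 rose by 1.37 and 1.36, Eno3 not with the Bst2+ libraries in the fit (adjusted p = 0.124). Pdk1, which keeps pyruvate from the mitochondria, fell from 193 ± 6.42 to 119.6 ± 9.85 CPM (−0.69). Of 25 genes of cholesterol synthesis and uptake 11 rose and 0 fell (median 0.53), against 5 and 0 with the Bst2+ libraries in the fit. Idi1, an isomerase of the isoprenoid steps, rose from 1.56, 1.57 and 1.595 CPM to 6.78, 2.501 and 6.05 (1.69 ± 0.44, adjusted p = 0.00389). Sqle, the squalene epoxidase, and Srebf2, the factor that drives the pathway, rose by 1.55 and 0.34. Hmgcs1, Fdps and Lss were not called (0.16, −0.02 and −0.17).

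Adenosine acts on T cells through cyclic AMP, and of 18 genes of this pathway 7 fell and 4 rose (median −0.01). Pde3b (ENSMUSG00000030671, chromosome 7, 114415281 to 114539251), a phosphodiesterase that FOXP3 is known to repress, stood at 332, 289 and 288 CPM in FOXP3lo progenitors and 45.2, 27.7 and 40.1 in mature Tregs (−3.01 ± 0.14, adjusted p = 4.38e-10). Its means were 249 ± 26.9 CPM in conventional cells and 119 ± 10.9 in CD25+ progenitors, and all 3 mature libraries lay under every library of the other gates. The phosphodiesterase genes Pde7a, Pde4b and Pde4d fell by 0.88, 0.76 and 0.36, the last not with the Bst2+ libraries in the fit (adjusted p = 0.463), and Adcy7, which makes cyclic AMP, by 1.13, from 126 ± 9.43 to 57.04 ± 8.898 CPM. Entpd1, Crem, Slc29a1 and Adk rose, the latter 3 by 0.73, 0.69 and 0.48. Without FOXP3lo replicate 42, 2 members were called higher, and with the Bst2+ libraries in the fit 1. The adenosine receptor gene Adora2a was not called (0.61). Among 25 actin regulators 5 rose and 7 fell (median −0.01). Coro2a, a coronin gene, had 110.2, 125 and 112 CPM in mature Tregs against 13.5, 10.3 and 12.4 (3.27 ± 0.15, adjusted p = 1.10e-20), and Swap70 rose by 1.02. Rflnb, which encodes the filamin-binding protein refilin B, was at 39.5, 37.9 and 32.3 CPM in FOXP3lo progenitors and 0.921, 4.03 and 0.975 in mature Tregs (−4.19 ± 0.54, adjusted p = 4.47e-04).

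**Figure D3:**
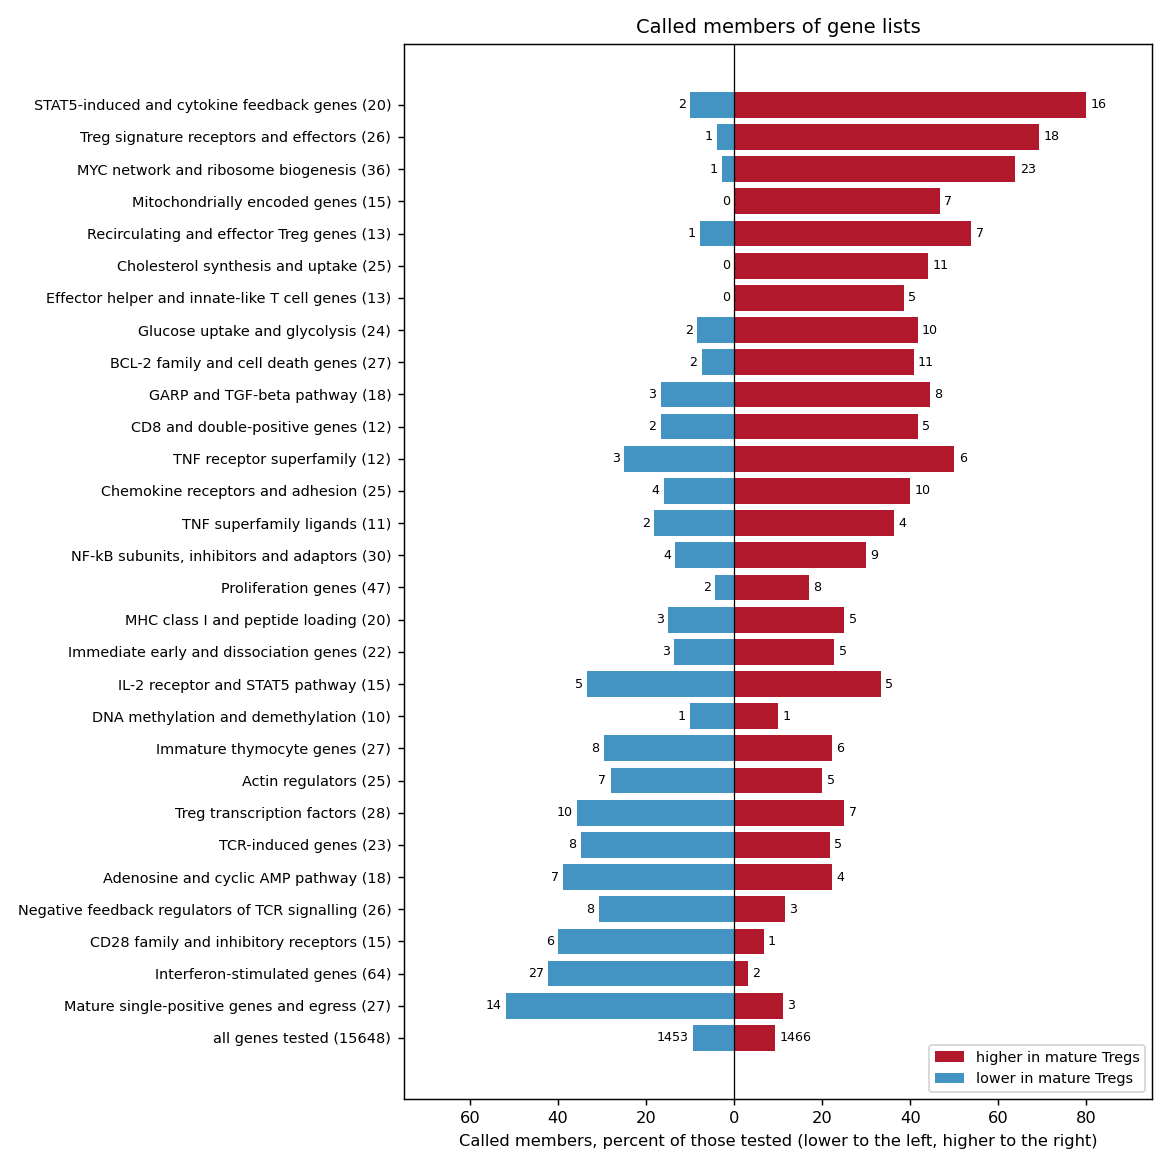
Share of the tested members of each gene list (number tested in brackets) called higher (right, red) or lower (left, blue) in mature Tregs, in percent, with the number called at each bar and all 15648 genes tested at the bottom. STAT5-induced genes (16 higher, 2 lower of 20) and Treg signature receptors (18 and 1 of 26) stand at the top, and late single-positive genes (3 higher, 14 lower of 27) and interferon-stimulated genes (2 and 27 of 64) at the lower end. The lists were chosen with results of these data known.

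The genes with the highest and lowest fold changes were taken among called genes whose gates did not overlap and whose higher gate averaged at least 5 CPM. Kcnj15, a potassium channel gene, led the higher ones, at 6.11, 5.98 and 5.14 CPM in mature Tregs and 0.0579, 0.225 and 0.05502 in FOXP3lo progenitors (5.58 ± 0.82, adjusted p = 1.39e-06). Its FOXP3lo libraries held 6 counts in all, so the size of the difference rests on few counts. Next after Socs2 were Cavin1, a coat protein of caveolae (4.29), Scin, the actin-severing protein scinderin, with 15.3, 13.7 and 14.8 CPM against 0.636, 1.12 and 0.495 (4.27), Nkg7, a granule protein of cytotoxic cells (4.12), and Lif. Prkar1b, a regulatory subunit of protein kinase A, Peli2, a ubiquitin ligase, Dgat2, an enzyme of triglyceride synthesis, and Lhfp rose by 3.40, 3.25, 3.08 and 3.05. Acvr1c, the type I receptor ALK7 of the TGF-beta superfamily, rose from 1.33, 0.561 and 0.275 CPM to 6.61, 6.74 and 5.72 (3.13 ± 0.50, adjusted p = 6.07e-06). The calls of Prkar1b, Dgat2 and Lhfp were lost with the Bst2+ libraries in the fit (adjusted p = 0.209, 0.0647 and 0.156).

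At the other end, Wdr49 was at 5.496, 8.08 and 2.696 CPM in FOXP3lo progenitors and 0, 0.556 and 0.1301 in mature Tregs (−4.48 ± 0.72, adjusted p = 6.42e-06), with a mature library at 0. Ggt5, an enzyme that cleaves leukotrienes, fell from 6.48, 10.4 and 7.48 CPM to 0.251, 0.695 and 0.2601 (−4.30), and Appl2, an endosomal adaptor, from 14.8, 13.9 and 14.6 to 0.837, 0.973 and 0.845 (−4.01 ± 0.25, adjusted p = 8.20e-16). Vipr1, the receptor of vasoactive intestinal peptide, fell from 55.9, 53.6 and 46.2 CPM to 6.03, 5.14 and 7.803 (−3.03 ± 0.15, adjusted p = 3.92e-19). The gates did not overlap in these genes. Igfbp4, which binds insulin-like growth factors, fell from 113, 96.04 and 83.7 CPM to 14.98, 20.4 and 13.01 (−2.60 ± 0.30, adjusted p = 2.89e-04). Lypd6b, Cnga1, a cyclic nucleotide-gated channel gene, Hs3st3b1, a heparan sulfate sulfotransferase gene, Sema4f, a semaphorin gene, Slc16a5, Dse and Slc15a1 fell by 4.702-fold to 11.8-fold. Il1rl2, the IL-36 receptor, was at 3.18, 0 and 1.04 CPM in mature Tregs against 7.81, 9.04 and 12.3 (−2.85). Its call was lost with the Bst2+ libraries in the fit (adjusted p = 0.0589), with only the compared gates (adjusted p = 0.0958), without FOXP3lo replicate 43 (adjusted p = 0.0528) and without mature replicate 43 (adjusted p = 0.0639), and that of Wdr49 with the Bst2+ libraries (adjusted p = 0.0676).

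**Figure D4:**
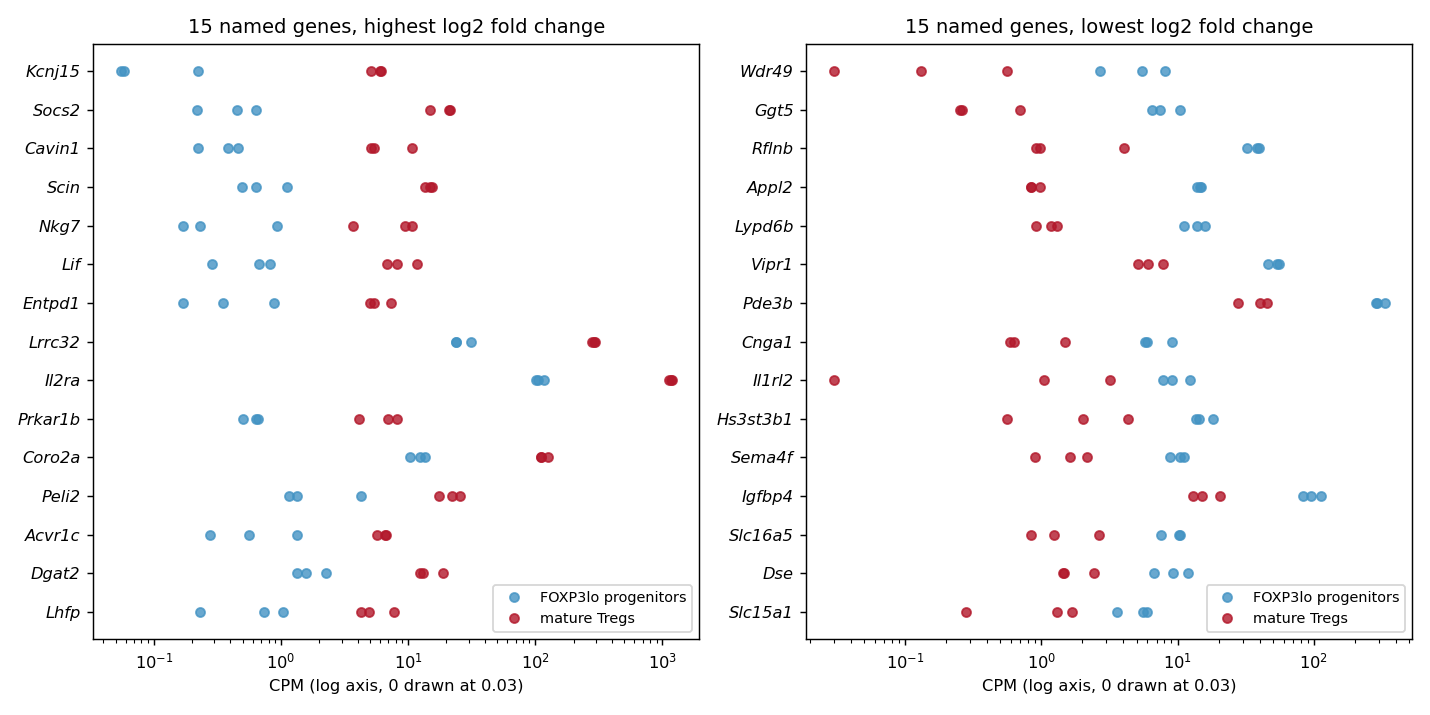
CPM per library (x axis, logarithmic, 0 drawn at 0.03) of the 15 genes with the highest and the 15 with the lowest log2 fold change among those named by rule, 3 libraries of each gate. In each of the 30 genes the 2 gates stand apart, from Kcnj15 and Socs2 at the top left to Slc15a1 at the bottom right.

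Transcripts of other T cell types were partly higher in mature Tregs than in FOXP3lo progenitors. Of 21 genes of recirculating and effector Tregs, matched in the table, the summed level was 124.6 to 153.3 CPM in FOXP3lo libraries and 279.5 to 314.0 in mature ones, and 7 of 13 tested rose, among them Ccr6, Itgae, Cd44, Tbx21, Lgals1 and Anxa2. Il18r1 fell (−0.63), and 0 fell without mature replicate 42 or FOXP3lo replicate 43. The defining genes Klrg1, Il10 and S100a4 were at 0 in both gates, and Cxcr3 had 3 counts in mature and 2 in FOXP3lo libraries. Genes of effector helper and innate-like T cells summed to 168.6 to 188.1 against 366.5 to 368.8 CPM, with 5 of 13 tested higher. Most of both sums was Gata3 (7154 counts in FOXP3lo and 11607 in mature libraries), counted above with the Treg factors. Ifng, Il17a, Zbtb16 and Klrb1c had 8 counts or fewer in either gate. The list summed to 326.5 to 339.3 CPM in CD25+ progenitors and 205.8 to 246.4 in conventional cells. Tbx21, which encodes T-bet, was at 1.09, 3.54 and 1.496 CPM in mature Tregs and 0, 0.168 and 0.385 in FOXP3lo progenitors (3.41 ± 0.85, adjusted p = 0.00283), a call lost with the Bst2+ libraries in the fit (adjusted p = 0.188). CD8 and double-positive genes summed to 81.9 to 86.5 against 106.8 to 118.6 CPM, with Cd8a at 2.47 ± 0.675 and 7.37 ± 3.35 CPM (1.58). The sum was higher in CD25+ progenitors (294.7 to 357.7 CPM) and in conventional cells (151.8 to 199.6). Of 12 tested 5 rose, Nkg7 furthest, and 2 fell, Crtam and Cd1d1 (−1.84 and −0.41). The numbers were 1 and 0 with the Bst2+ libraries in the fit, and 0 or 1 fell when any compared library was left out (0 without FOXP3lo replicates 40 and 43 or mature replicate 42). Gamma-delta T cell genes summed to 17.5 to 23.2 against 24.5 to 30.9 CPM, with Trdc not called (−0.03). They summed to 50.09 to 60.58 CPM in CD25+ progenitors and 27.11 to 43.79 in conventional cells. Of 8 tested 3 rose and 0 fell, and these were Trgv2 (36 counts in mature and 1 in FOXP3lo libraries, adjusted p = 2.82e-04), Trgc2 (2.11) and Trgc1 (3.86). The near-identical Trgc copies, among which reads are uncertain, were at about 1 CPM or less, and with the Bst2+ libraries in the fit the call of Trgv2 alone was left. The call of Trgc1 was also lost without FOXP3lo replicate 42 or 43 or mature replicate 43 (adjusted p = 0.0611, 0.0666 and 0.0883). The part of such cells in the rises of Ccr6, Itgae, Cd44, Nkg7 and Gata3 was not tested.

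Markers of other lineages were counted in the same way. B cell genes summed to 47.8 to 65.1 CPM in FOXP3lo and 54.3 to 58.8 in mature libraries, and of 5 tested Cd74, the MHC class II invariant chain gene, alone rose (0.50). That call was lost with the Bst2+ libraries (adjusted p = 0.287), with no filter (adjusted p = 0.0593), with only the compared gates (adjusted p = 0.0994) and with limma-voom (adjusted p = 0.0872). It was also lost without mature replicate 40 (adjusted p = 0.0575), mature replicate 43 (adjusted p = 0.231) or FOXP3lo replicate 42 (adjusted p = 0.295). The 20 dendritic cell and macrophage genes summed to 3.12 to 11.3 against 5.59 to 10.4 CPM, and 0 of 4 tested were called. Of the plasmacytoid dendritic cell list 3 of 8 rose, Irf8, Tcf4 and Runx2 (Irf8 and Runx2 not with the Bst2+ libraries in the fit), while the defining gene Siglech had 1 count in FOXP3lo and 0 in mature libraries. The list of thymic epithelium and stroma summed to 393.9 to 423.6 against 314.8 to 329.4 CPM, most of it Pecam1, which T cells also express and which fell by 0.43. Of the erythroid list Tfrc alone was tested, and it rose by 0.60.

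The difference between the gates with and without CD25 was then compared with the same difference in cells without FOXP3, CD25+ progenitors against conventional cells, which shares no library with it. The difference of the 2 differences was called in 1698 genes (10.9%), 855 higher (5.46%) and 843 lower (5.39%). Of the 1466 genes that rose in mature Tregs, 272 had a higher difference there than between the gates without FOXP3, 171 a lower one, and 1023 were not called in this test. Of the 1453 that fell, 207 differed more strongly in that direction with FOXP3 than without it, 164 less strongly, and 1082 were not called. Il2ra was higher by 4.97 without FOXP3 and by 3.43 with it, and the difference of the 2 was −1.54 ± 0.11 (adjusted p = 8.27e-14, edgeR). For Lrrc32 the values were 5.01 and 3.46 (difference −1.55 ± 0.19, adjusted p = 5.89e-08), and for Cish 2.30 and 1.92 (difference −0.38 ± 0.12, adjusted p = 0.0356). In all 3 genes the mean of conventional cells was under that of FOXP3lo progenitors.

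Other genes differed more between the CD25 gates with FOXP3 than without it, Gpr83 in the opposite direction. Socs2 was 5.43 higher with FOXP3 and 1.41 without (adjusted p = 0.0027), and Kcnj15 5.58 and 0.35 (adjusted p = 0.00239). Gpr83 stood at 29.2 ± 1.35 CPM in conventional cells and 12.8 ± 1.92 in CD25+ progenitors, a difference of −1.19, against its rise of 2.28 with FOXP3 (adjusted p = 2.78e-21). Nrp1 showed 0.02 without FOXP3 and 2.16 with it (adjusted p = 4.57e-11). Pde3b showed −1.07 without FOXP3 and −3.01 with it (adjusted p = 3.67e-06). Opposite directions appeared in Bcl2l11 and Bcl2. The survival gene Bcl2l1 was higher with CD25 in both settings, by 1.26 without FOXP3 and 1.53 with it (adjusted p = 0.189). Bcl2l11 averaged 91.4 ± 7.803 CPM in conventional cells against 264 ± 33.2 in the CD25+ gate, and 111 ± 16.1 in FOXP3lo progenitors against 54.03 ± 7.198 in mature Tregs. Bcl2 averaged 307 ± 19.1 against 165 ± 13.9 CPM without FOXP3 and 258 ± 4.25 against 394 ± 11.7 with it. The BIM gene thus differed by 1.53 without FOXP3 and −1.05 with it (adjusted p = 4.49e-14), and Bcl2 by −0.90 and 0.61 (adjusted p = 1.68e-15).

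**Figure D5:**
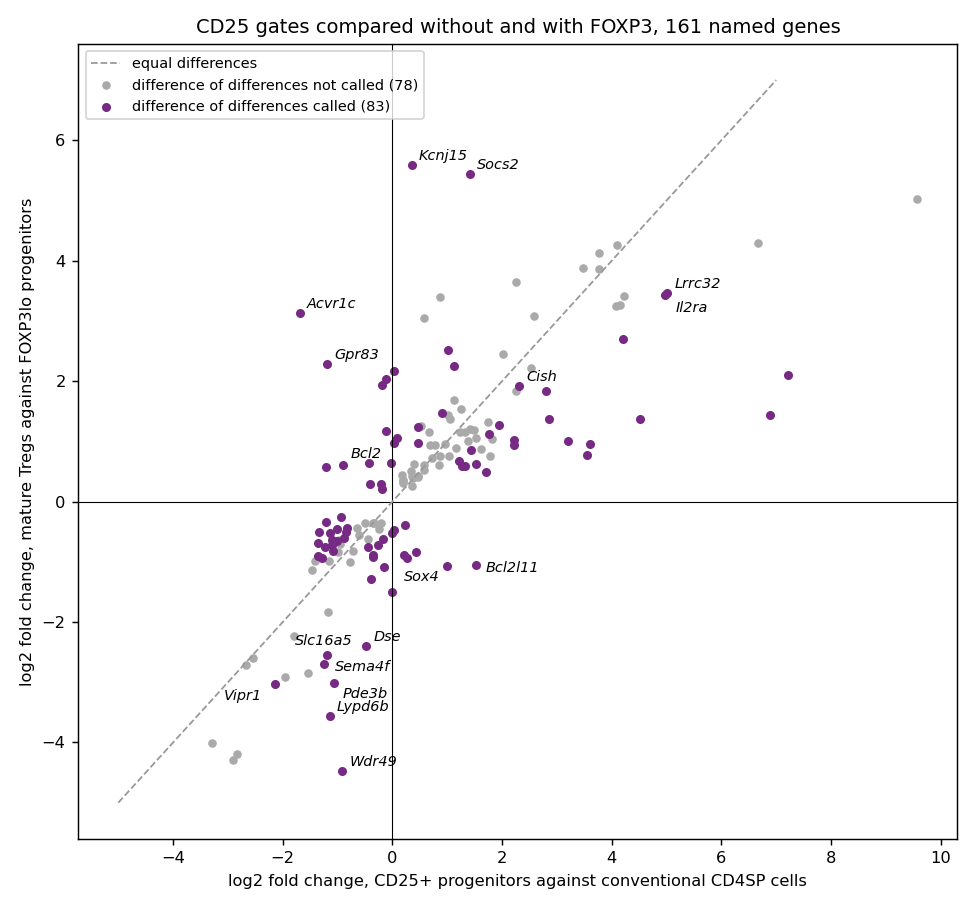
For 161 named genes, the log2 fold change of CD25+ progenitors against conventional cells (x axis) and of mature Tregs against FOXP3lo progenitors (y axis), 2 comparisons with no library in common. Points on the dashed line have equal differences, and 83 genes (purple) departed from it at an adjusted p under 0.05, against 10.9% of all genes tested. Most named genes were chosen by the difference on the y axis, which favours such a departure. Bcl2, Gpr83 and Acvr1c (upper left) and Bcl2l11 and Sox4 (lower right) have opposite signs.

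The same test was counted by list, to be read beside the 5.46% called higher and 5.39% called lower among all genes tested. The difference between the CD25 gates was less negative or more positive with FOXP3 in 27 of 64 interferon-stimulated genes and the reverse in 1, and in 19 of 27 late single-positive genes against 1. Among TCR-induced genes 13 of 23 had a less positive or more negative difference with FOXP3 and 4 a more positive one, and in the restraining regulators it was 10 and 2 of 26. For cholesterol genes 0 of 25 were called in either direction, so that a difference between the 2 settings was not detected, which does not show that they are equal.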

How the data were processed

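RNA of sorted thymocytes was measured in 15 libraries using the low-input, strand-keeping SMARTer Pico v2 chemistry, per the labels' protocols. Cells were released mechanically, depleted of CD8 with magnetic beads and sorted. The authors deposited unnormalized read-pair counts for 55573 genes. These were made by featureCounts 1.6.2 from Ensembl 97 on GRCm38, with strand setting 2, both ends required to map and mapping quality 10 as the minimum, per the file headers. The submitters' processing notes list Trimmomatic 0.33 and HISAT2 2.1.0, and give featureCounts another version, 1.4.6. Amplification copies are not told from molecules, so count-based precision covers counting only.

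Symbols came from positions matched to RefSeq on GRCm38.p6 (35865 genes named, Jaccard overlap at least 0.5, or a shared end or sole partner at lower overlap). The table had 0 value columns outside the samples and 0 entries naming no gene. Of 825 entries of 36 gene lists, 809 were matched. Promoter and protein sequences were not used here.

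Genes were tested in R 4.3.3 with edgeR 4.0.16 (quasi-likelihood, robust) on 12 libraries with 4 group means, after filterByExpr and TMM, without the Bst2+ libraries. The script was tested on simulated data. A second contrast took the difference between the CD25 gates with FOXP3 minus that without. Named genes are Foxp3, Il2ra, Cish, Lrrc32, Cd4 and Nt5e, the 15 genes furthest up and the 15 furthest down by fold change that were called, did not overlap, had a symbol and averaged at least 5 CPM in the higher gate (no receptor segments, pseudogenes, small RNAs or clone names), and, in each list, at most 5 called members, taken by adjusted p. Further list members were chosen after their values were seen. Some genes that the rule names are not reported here, though they count in the totals of lists and named genes. The comparison, its members and the lists were chosen with earlier results of these data known. Replicate numbers were taken as shared biological replicates, from the design text, which speaks of 3 such replicates of 1 sort. Deviations of same-numbered libraries correlated across genes at −0.0104 to 0.0538 (18 pairs). Alternatives were RLE factors, no filter, 2 CPM in 3 libraries, all 15 libraries, only the compared gates, a replicate block, DESeq2 1.42.0, limma-voom (limma 3.58.1), a fold-1.5 test and leaving out each library.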

Additional observations from a re-analysis of the deposited data

Results flagged for a closer look

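The results below are genes whose difference between the gates with and without CD25 was itself different with and without FOXP3, by the interaction test of edgeR (adjusted p over all genes tested). The gates with FOXP3 also differed in its amount, which this test cannot tell apart from CD25. Of the 34 gate, marker and top genes 13 were called, and 5 named genes were called whose differences have opposite signs and each exceed 0.5 on the log2 scale, a limit chosen after the values were seen. Acvr1c is in both sets, which makes 17 genes. Of all genes tested, 10.9% were called in this test. Most named genes were chosen by their difference with FOXP3, which is itself a part of the test. That choice favours a call, so these counts are no independent result. Groups of 3 libraries were not examined for single outlying samples.

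The difference was higher with FOXP3 in 5 genes. Its values were 5.23 ± 1.22 in Kcnj15 (adjusted p = 0.00239), 4.82 ± 0.68 in Acvr1c (adjusted p = 1.26e-06) and 4.03 ± 0.95 in Socs2 (adjusted p = 0.0027). Gpr83 had 3.47 ± 0.15 (adjusted p = 2.78e-21) and Bcl2 1.51 ± 0.10 (adjusted p = 1.68e-15). Acvr1c, Gpr83 and Bcl2 differed by −1.69, −1.19 and −0.90 between CD25+ progenitors and conventional cells, and rose in mature Tregs.

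The difference was lower with FOXP3 in the other 12. Bcl2l11 (−2.57 ± 0.15, adjusted p = 4.49e-14) and Sox4 (−2.07 ± 0.11, adjusted p = 3.20e-18) had differences of 1.53 and 1.00 without FOXP3 and fell with it. Il2ra (−1.54 ± 0.11, adjusted p = 8.27e-14), Lrrc32 (−1.55 ± 0.19, adjusted p = 5.89e-08) and Cish (−0.38 ± 0.12, adjusted p = 0.0356) were higher with CD25 in both settings, by less with FOXP3. The remaining 7 had negative values in both settings, further from 0 with FOXP3. These were Wdr49 (−3.56 ± 0.93, adjusted p = 0.00716), Lypd6b (−2.42 ± 0.37, adjusted p = 4.78e-06), Pde3b (−1.94 ± 0.19, adjusted p = 3.67e-06) and Dse (−1.92 ± 0.47, adjusted p = 0.00397). The others were Sema4f (−1.46 ± 0.41, adjusted p = 0.0141), Slc16a5 (−1.37 ± 0.39, adjusted p = 0.0143) and Vipr1 (−0.88 ± 0.20, adjusted p = 0.0014).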

How the results depend on the processing

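The count of called genes stayed within 1.5 times of 2919 with RLE factors (2925), no filter (2605), 2 CPM in 3 libraries (2955), only the compared gates (2855), DESeq2 (3137) and limma-voom (2762). With the replicate number as a block 2978 genes were called (1492 higher and 1486 lower), 1755 in the interaction, and of the named genes Crtam alone lost its call (adjusted p = 0.0507). Taken as deviations from the gate mean, each of the 6 compared libraries correlated best with its own number in the other gate. These correlations were near 0 (0.0212, 0.0255 and 0.014 for numbers 40, 42 and 43), a weak hint at most. With all 15 libraries 759 were called (404 higher, 355 lower) and 378 in the interaction (192 higher, 186 lower), and the cause was not tested, the coefficient of variation being 0.449 among the Bst2+ libraries. In the stricter test against a fold of 1.5 the counts were 412 (240 higher, 172 lower) and 369 (141 higher, 228 lower). Leaving out a library gave 2312 to 2707 and 1401 to 1610. Of 160 named genes called, 38 lost the call with all 15 libraries, 72 against a fold of 1.5 and 9 without some library, and no value of the 161 changed direction in the alternatives that gave one (Trgv2 and Trgc1 had none with only the compared gates). Nt5e gained a call in 3 alternatives. With all 15 libraries the members higher and lower were 11 and 2 for STAT5-induced, 14 and 1 for Treg signature, 18 and 0 for MYC and ribosome, 0 and 8 for interferon-stimulated and 2 and 6 for late single-positive genes. The counts also shrank for the IL-2 receptor pathway (2 and 2), TNF receptors (3 and 1), TNF ligands (1 and 1), CD28 family (1 and 3), NF-kB (6 and 1), TCR-induced (3 and 4), Treg factors (5 and 6), restraining regulators (2 and 6), actin regulators (3 and 2) and immature genes (0 and 4). Without FOXP3lo replicate 40, 2 Treg signature members fell, and 1 interferon-stimulated gene rose without FOXP3lo replicate 40 or 42 or mature replicate 43.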

Other observations

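Outside the gene lists, several genes with a very small adjusted p were noticed after their values were seen. Mbnl3, a splicing regulator of the muscleblind family, averaged 189 CPM in mature Tregs and 22.8 in FOXP3lo progenitors (3.05 ± 0.12, adjusted p = 6.38e-23, edgeR). Ncf1, a subunit of the phagocyte NADPH oxidase, averaged 88.2 against 12.5 CPM (2.81 ± 0.16, adjusted p = 1.03e-17). The very large scaffold and cytoskeletal proteins Ahnak, Dst and Neb rose by 2.30, 1.95 and 2.85, Neb from 9.64 to 69.7 CPM. Lad1, Tmem123 and Niban1 rose by 1.46, 1.35 and 2.13. Gramd1a, which moves cholesterol between membranes, fell from 562 to 176 CPM (−1.67 ± 0.07, adjusted p = 6.47e-22), and Chd7, a chromatin remodeller, from 187 to 60.95 (−1.62 ± 0.09, adjusted p = 6.96e-18).

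The invariant chains of the TCR complex fell alongside the receptor constant genes. Cd3g averaged 389 CPM in mature Tregs against 552 (−0.50 ± 0.07, adjusted p = 6.35e-07), and Cd3d and Cd3e had −0.42 and −0.28. MHC class I and peptide loading genes had 5 of 20 higher and 3 lower (median 0.03). B2m, the light chain of class I, rose by 0.21, not with the Bst2+ libraries in the fit, and Calr by 0.50, and Nlrc5, which drives class I genes, fell (−0.23). H2-K1 and H2-D1 were not called (−0.03 and 0.08), and the many class I copies share sequence. Of 10 DNA methylation and demethylation genes Uhrf1 alone rose and Tet1 alone fell (−0.63), and 2 fell without mature replicate 43. These shares are near those of all genes tested, of which 9.37% rose and 9.29% fell. Dnmt1, Dnmt3a, Tet2 and Tet3 were not called (0.05, 0.10, −0.15 and −0.03).

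Of 15 mitochondrially encoded genes 7 rose and 0 fell (median 0.31), 4 without any 1 of FOXP3lo replicates 40 and 43 and mature replicates 40 and 42, and 0 with all 15 libraries. The 2 ribosomal RNAs were not called (0.11 and 0.10). Of 22 immediate early and dissociation genes, 5 rose and 3 fell (median 0.14), and 2 to 6 rose when a library was left out, 2 or 3 of them without FOXP3lo replicate 40 or 43 or mature replicate 42 or 43. Jun rose from 18.98, 49 and 22.5 CPM to 67.1, 125 and 83.1 (1.61 ± 0.43, adjusted p = 0.0323) while Fos was not called (−0.17). Zfp36 and Zfp36l2, which destabilise messenger RNAs, fell (−0.46 and −0.71), Zfp36 not with all 15 libraries (adjusted p = 0.188).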
